A study of Mus musculus with 6 samples.

Results

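Glycolysis, the pentose phosphate pathway and the citric acid cycle were followed here as 49 genes that encode their enzymes, their regulatory kinases and the carriers of pyruvate and lactate. A gene was measured where a probe set of the array is annotated with that gene symbol and no other, and the brightest such probe set over all arrays stood for the gene. This gave 43 measured genes of 22180 genes on the array. The 6 others, Gpi1, Aldoa, Eno1, G6pdx, Tkt and Mpc2, were not analysed here for want of a probe set of their own.

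The samples were 3 cultures of mouse primary hippocampal cells infected with AAV1/2, an adeno-associated virus, that carried a Diras2 knockdown construct, and 3 control cultures infected with a virus carrying a scrambled sequence. Diras2 encodes a small GTPase related to Ras that is expressed mainly in brain. All cells came from embryos at prenatal day 18 and grew in Neurobasal medium with B27, were infected 7 days after seeding and gave total RNA 7 days after infection. The labels call the cultures biological replicates but name no strain, no sex and no separate litters. The p-values thus speak to the variation among these 6 cultures, which may partly be technical. A single construct was used, so its effect through Diras2 and any other effect it has cannot be told apart.

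Glucose is split by glycolysis to pyruvate, with a small net yield of ATP, and pyruvate is either reduced to lactate or carried into mitochondria, where pyruvate dehydrogenase turns it to acetyl-CoA for the citric acid cycle. The pentose phosphate pathway branches off at glucose 6-phosphate and supplies NADPH and ribose. In brain, astrocytes are known for strong glycolysis and lactate release, and neurons take up lactate through a monocarboxylate transporter of their own and oxidise it.

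Values are log2 expression levels made with RMA, on which 1 unit is a doubling. A difference is the mean of the knockdown arrays minus that of the control arrays, its error is the SE of limma's moderated fit, and a gene was said to rise or fall where its p, adjusted by the Benjamini-Hochberg method over all 22180 genes, was under 0.05. The number of arrays limits the precision. Diras2 had levels of 7.17, 6.23 and 6.08 in the knockdown arrays, against 10.17, 10.17 and 9.76 in the control arrays. Its difference was -3.54 (SE 0.27) with an adjusted p by limma of 0.00063, and its exact two-sided permutation p was 0.1, the smallest that 3 against 3 arrays allow. Across genes, pairs of knockdown arrays correlated at 0.992 or more, pairs of control arrays at 0.988 or more and mixed pairs at 0.981 or more.

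Of the 43 metabolic genes 4 rose and 2 fell, and the other 37 did not pass the test. Tpi1, which makes triose phosphate isomerase of glycolysis, rose 2.4-fold, and Slc16a7, which makes the monocarboxylate transporter of neurons, rose 2.99-fold. Slc16a1, a second monocarboxylate transporter, rose 1.57-fold and Pdk3, a kinase that switches pyruvate dehydrogenase off, 1.41-fold. Idh3a, the catalytic subunit of the NAD-dependent isocitrate dehydrogenase of the citric acid cycle, fell 2.12-fold, and Pgd, the second dehydrogenase of the pentose phosphate pathway, fell 1.79-fold. Each of these 6 genes had only 1 probe set of its own, so no call could be compared with a second one. The median difference over the 43 genes was 0.03, with 24 above 0 and 19 below, against 0.00 over all genes tested. The cultures are mixed, and in such bulk RNA fewer cells of a type and less RNA per cell cannot be told apart.

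The share of genes that passed was 13.95% here, where 7.80% of all genes passed, 4.17% higher and 3.64% lower. These metabolic genes are well expressed, and 42 of them had a mean level at or above the median over genes. Of all genes at or above that median 14.6% passed, and of the 42 it was 6, or 14.3%. The groups did not overlap for 12 of the 43, or 27.9%, against 25.5% of all genes. The share that passed was thus above that of all genes and near that of genes of like level. The lists were not tested as sets, and the values below describe single genes.

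**Figure D1:**
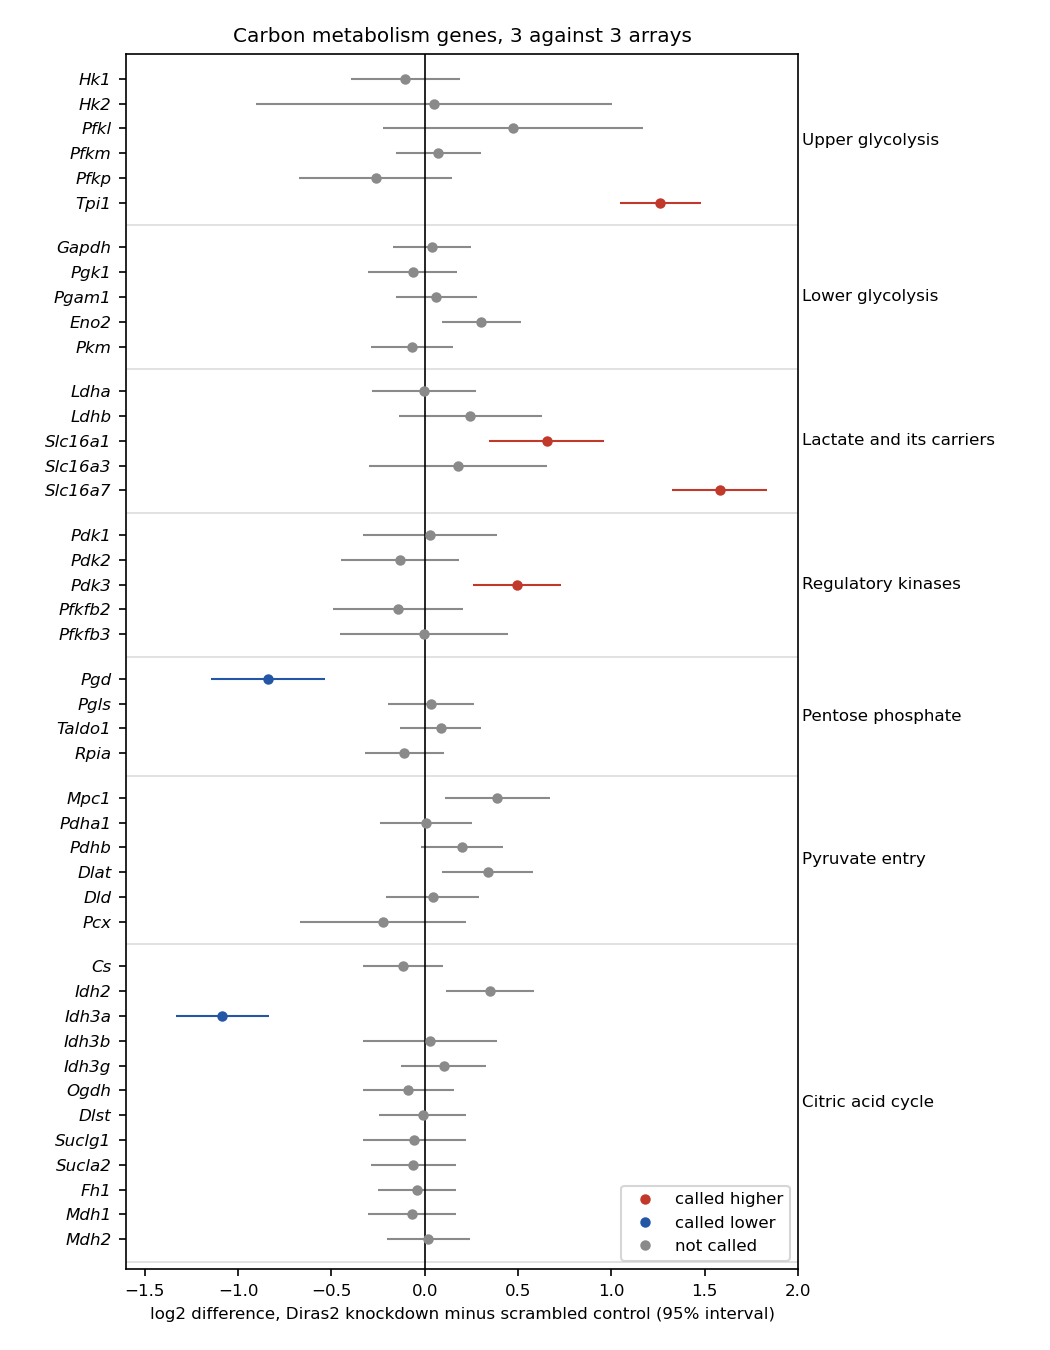
Differences in log2 level, Diras2 knockdown minus scrambled control, of the 43 measured genes by their role, as points with 95% intervals from limma (3 arrays each). Slc16a7 and Tpi1 lie farthest to the right and Idh3a farthest to the left, at 1.58, 1.26 and -1.08, and most other intervals cross 0.

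Promoter sequence is shown for the called genes, since the regulators Mlxip and the hypoxia-inducible factors, described further on, are known to bind promoters of glycolytic genes at sites built around CACGTG for Mlxip and around ACGTG for the hypoxia-inducible factors. RefSeq promoter tables (GRCm38.p6) held windows for 41 of the 43 genes and for 4 of the 6 called ones, and promoters of Slc16a7 and Idh3a were not used here. The 250 bases before the start are given 5′ to 3′ on the strand of the gene, with every match to ACGTG on either strand in capitals, so that CACGTG, which holds ACGTG on both strands, appears as 6 capitals.
Slc16a1 (chr3:104638414-104638663, plus strand): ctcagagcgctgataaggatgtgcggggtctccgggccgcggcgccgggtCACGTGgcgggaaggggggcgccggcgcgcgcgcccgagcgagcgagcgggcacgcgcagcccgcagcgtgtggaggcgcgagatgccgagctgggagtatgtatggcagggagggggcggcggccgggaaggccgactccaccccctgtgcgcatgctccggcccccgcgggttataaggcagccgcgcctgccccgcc
Pdk3 (chrX:93832151-93832400, minus strand): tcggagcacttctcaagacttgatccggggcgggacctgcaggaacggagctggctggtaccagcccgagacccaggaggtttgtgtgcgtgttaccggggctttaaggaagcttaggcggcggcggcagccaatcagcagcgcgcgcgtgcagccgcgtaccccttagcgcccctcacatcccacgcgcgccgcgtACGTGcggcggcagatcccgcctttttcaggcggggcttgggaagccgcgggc
Tpi1 (chr6:124814159-124814408, minus strand): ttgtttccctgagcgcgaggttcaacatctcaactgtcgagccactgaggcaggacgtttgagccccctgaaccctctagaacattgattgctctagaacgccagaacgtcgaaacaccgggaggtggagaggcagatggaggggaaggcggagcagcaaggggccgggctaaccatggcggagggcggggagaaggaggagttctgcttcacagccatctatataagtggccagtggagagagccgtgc
Pgd (chr4:149166706-149166955, minus strand): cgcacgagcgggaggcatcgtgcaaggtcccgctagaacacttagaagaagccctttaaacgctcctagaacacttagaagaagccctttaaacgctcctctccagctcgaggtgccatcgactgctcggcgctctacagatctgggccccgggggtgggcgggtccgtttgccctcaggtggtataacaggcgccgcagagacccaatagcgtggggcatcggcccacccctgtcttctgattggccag
Slc16a1 carried 1 CACGTG, 200 bases before its start, and Pdk3 1 ACGTG, 53 bases before its start. The windows of Tpi1 and Pgd held neither run of letters, and no other form of such sites was searched for. Over all 32851 windows of this length 16.6% held ACGTG and 6.02% CACGTG, and over the 60 windows of the 41 genes 41.7% and 16.7%. Several windows can belong to 1 gene, the part of base composition in these shares was not tested, and a match is a run of letters and not a binding site.

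Among the genes of the upper part of glycolysis, from glucose to the triose phosphates, 1 of 6 measured rose, 0 fell and the median difference was 0.06. That median was -0.08 without knockdown replicate 1 and 0.30 without control replicate 1, the extremes with 1 array left out. Tpi1, which interconverts the 2 triose phosphates, had levels of 11.18, 11.34 and 11.23 in the knockdown arrays, against 10.01, 9.98 and 9.97 in the control arrays. The groups lay more than 1 unit apart, and the controls differed among themselves by 0.04 at most. The difference was 1.26 (SE 0.09), with an adjusted p by limma of 0.00063.

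The hexokinases, which trap glucose in the cell, did not pass the test. Hk1, the form typical of brain, had 7.76, 7.54 and 7.49 in the knockdown arrays, against 7.83, 7.77 and 7.50 in the control arrays, which overlapped. Hk2, an inducible form, had 6.19, 5.38 and 4.97 in the knockdown arrays, against 6.36, 4.91 and 5.12 in the control arrays. Replicate 1 was the highest of its group in both, so that the SE of its difference of 0.05 was 0.41, the widest of all 43 genes, and a change of 1.5-fold in either direction lies within its 95% interval of -0.90 to 1.00.

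The 3 subunits of phosphofructokinase, which commits sugar to glycolysis, had differences on either side of 0. Pfkl, the liver type, had 8.51, 8.08 and 7.85 in the knockdown arrays, against 8.37, 7.51 and 7.14 in the control arrays. The groups overlapped, yet in each same-numbered pair of cultures the knockdown was the higher one, by 0.14, 0.57 and 0.71. Its difference of 0.47 (SE 0.30) had an adjusted p by limma of 0.445, and of 0.0679 with the replicate number as a block. Pfkp, the platelet type found in brain, had a difference of -0.26 (SE 0.18) and Pfkm, the muscle type, one of 0.07 (SE 0.10). Pfkfb2 and Pfkfb3, which make the fructose 2,6-bisphosphate that activates phosphofructokinase, had differences of -0.14 (SE 0.15) and 0.00 (SE 0.20).

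Of the 5 measured genes of the lower part of glycolysis, from glyceraldehyde 3-phosphate to pyruvate, 0 passed the test. Gapdh, the dehydrogenase that is also a common reference gene, had 12.99, 13.02 and 13.00 in the knockdown arrays, against 13.03, 12.95 and 12.91 in the control arrays, a difference of 0.04 with a 95% interval of -0.17 to 0.25. It has many near-identical copies in the genome, and its 3 probe sets differed between the groups by 0.02 to 0.05. Pgk1, which makes the first ATP of the pathway, had a difference of -0.06 and Pkm, the pyruvate kinase that makes the last, one of -0.07. Eno2, the enolase of neurons, had 10.16, 10.21 and 10.24 in the knockdown arrays, against 9.85, 9.89 and 9.96 in the control arrays. These groups did not overlap, and the difference of 0.30 (SE 0.09) had an adjusted p by limma of 0.0945. It passed where only genes at or above the median level were tested (0.0406) and with an intensity trend in the fit (0.0420). Pgam1, the phosphoglycerate mutase of brain, had a difference of 0.06 on its brighter probe set and of 0.46 on a dimmer one.

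Ratios within single arrays set Tpi1 against its neighbours in the chain. The log2 ratio of Tpi1 to Gapdh was -1.81 to -1.68 in the knockdown arrays and -3.02 to -2.94 in the control arrays, and that of Tpi1 to Pgam1 was 0.71 to 0.87 in the knockdown arrays and -0.48 to -0.33 in the control arrays. Over 9 such ratios chosen after the values were seen, 8 did not overlap between the groups. The first gene of every ratio had itself passed the test, so a lack of overlap was largely set in advance. It describes the ratios and adds no support to the calls. Each of the 8 had an exact two-sided permutation p of 0.1, the smallest possible with 3 against 3 arrays, and a Benjamini-Hochberg adjusted p of 0.1125.

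**Figure D2:**
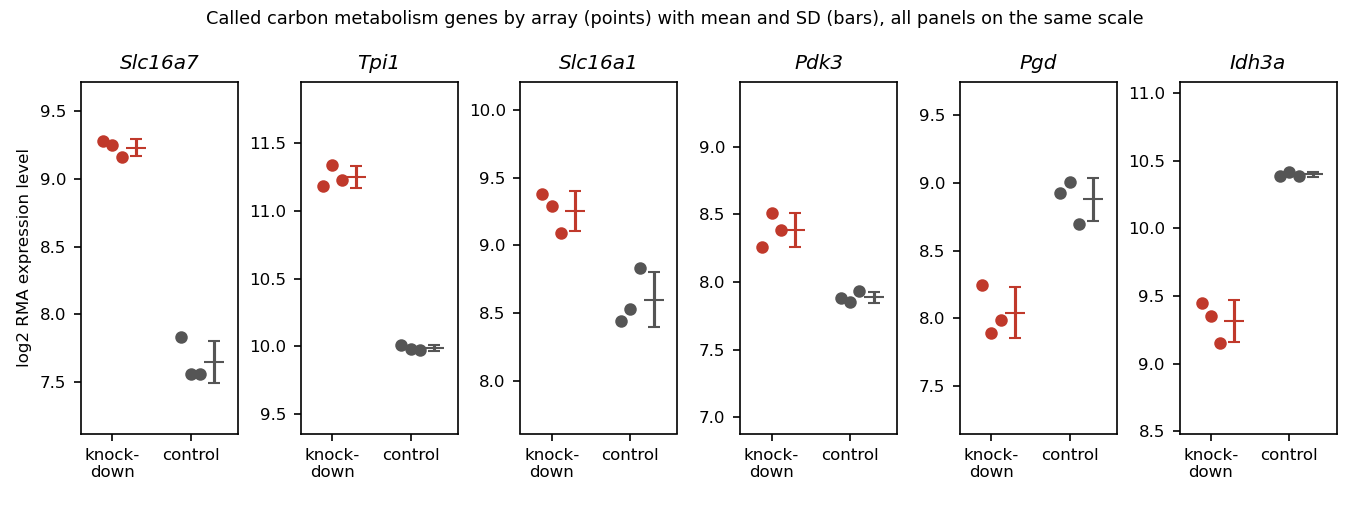
Log2 RMA expression level of the 6 called genes in each array (points), Diras2 knockdown left and scrambled control right in each panel, with mean and SD (n = 3 each). In all 6 panels the 3 knockdown points lie on one side of the 3 control points, with the widest gap in Slc16a7 (9.16 to 9.28 against 7.56 to 7.83).

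Lactate and its carriers held 2 of the 4 genes that rose, of 5 measured, with a median difference of 0.24 (0.19 without knockdown replicate 3 to 0.44 without control replicate 1). Monocarboxylate transporters move lactate, pyruvate and ketone bodies together with a proton. Slc16a7, also called MCT2, is the high-affinity form of neurons, and had 9.28, 9.25 and 9.16 in the knockdown arrays, against 7.83, 7.56 and 7.56 in the control arrays. Every knockdown array was more than 1 unit above every control array, with a difference of 1.58 (SE 0.11) and an adjusted p by limma of 0.000555. Slc16a1, also called MCT1 and known from glia and the endothelium of brain vessels, had 9.38, 9.29 and 9.09 in the knockdown arrays, against 8.44, 8.53 and 8.83 in the control arrays. The lowest knockdown array and the highest control array differed by 0.26 only, and the difference was 0.65 (SE 0.13) with an adjusted p by limma of 0.0247. This call was lost without knockdown replicate 1 (0.0730) or 2 (0.0965) and without control replicate 1 (0.0606) or 2 (0.1065). The log2 ratio of Slc16a7 to Slc16a1 was -0.10 to 0.07 in the knockdown arrays and -1.27 to -0.61 in the control arrays.

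The third transporter, Slc16a3 or MCT4, is known for lactate export from glycolytic cells such as astrocytes, and had a low level of 4.45 ± 0.09 in the knockdown and 4.28 ± 0.46 in the control (SD, n = 3 each). Whether it lay above background was not tested. The 2 lactate dehydrogenase genes did not pass. Ldha, the muscle-type subunit, had 5.55, 5.39 and 5.34 in the knockdown arrays, against 5.28, 5.62 and 5.39 in the control arrays, which overlapped fully. Its mean level lay at percentile 53.7 of all genes, and whether its probe set read above background was not tested either. Ldhb, the heart-type subunit that neurons favour, had 9.23, 9.37 and 9.53 in the knockdown arrays, against 8.82, 9.13 and 9.45 in the control arrays. It was higher in the knockdown in each same-numbered pair, by 0.41, 0.24 and 0.08, and its difference of 0.24 (SE 0.17) had an adjusted p by limma of 0.482.

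Pyruvate entry into mitochondria was covered by 6 measured genes, of which 0 passed the test, with a median difference of 0.12. Mpc1, a subunit of the mitochondrial pyruvate carrier, had 11.29, 11.46 and 11.46 in the knockdown arrays, against 10.88, 10.93 and 11.23 in the control arrays. The groups lay apart by 0.06, and the difference of 0.39 (SE 0.12) had an adjusted p by limma of 0.107, and one of 0.0482 without control replicate 3. A second, dimmer probe set of Mpc1 showed 0.38. Of the subunits of the pyruvate dehydrogenase complex, Dlat, the acetyltransferase core, had 8.41, 8.32 and 8.17 in the knockdown arrays, against 8.06, 7.91 and 7.92 in the control arrays, and a difference of 0.34 (adjusted p 0.107 by limma). Pdhb, the beta subunit of its decarboxylase, had a difference of 0.20, with no overlap between the groups either. Pdha1, the alpha subunit, which carries the phosphorylation sites, differed by 0.01 (95% interval -0.24 to 0.25), and Dld, the dehydrogenase shared with other complexes, by 0.04. Pcx, pyruvate carboxylase, which refills the cycle and is mainly an enzyme of astrocytes in brain, had a difference of -0.22 (SE 0.19).

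Of the 3 kinases among the 43 genes that inactivate pyruvate dehydrogenase by phosphorylation, 1 rose. Another, Pdk4, stood in a list of further genes and was named after its values were seen. It differed by -0.32 (SE 0.16) with an adjusted p by limma of 0.301. Pdk3 had 8.26, 8.51 and 8.38 in the knockdown arrays, against 7.88, 7.85 and 7.93 in the control arrays. All knockdown arrays lay above all controls, with a difference of 0.50 (SE 0.10) and an adjusted p by limma of 0.0249. The call was lost without knockdown replicate 2 (0.0965) or 3 (0.0833), without control replicate 1 (0.0567) or 2 (0.105) and on adding RNA integrity to the model (0.112). Pdk1, a kinase induced by low oxygen, had 7.52, 7.41 and 7.13 in the knockdown arrays, against 7.60, 7.24 and 7.13 in the control arrays, and Pdk2, a broadly expressed form, had 8.44, 8.07 and 7.96 in the knockdown arrays, against 8.22, 8.35 and 8.30 in the control arrays. The ratio of Pdk3 to Pdk2 did not overlap between the groups. That of Pdk3 to Pdk1 did, at 0.74 to 1.25 in the knockdown arrays and 0.28 to 0.80 in the control arrays, with an exact permutation p of 0.2 that takes no account of the replicate numbers. Within same-numbered pairs this log2 ratio was higher in the knockdown by 0.46, 0.49 and 0.45, and an exact test on 3 pairs cannot go below 0.25.

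In the pentose phosphate pathway 1 of 4 measured genes fell, 0 rose and the median difference was -0.04 (-0.06 without knockdown replicate 3 to -0.02 without control replicate 1). Pgd, 6-phosphogluconate dehydrogenase, makes the second NADPH of the oxidative branch and the 5-carbon sugar ribulose 5-phosphate. Its levels were 8.25, 7.89 and 7.99 in the knockdown arrays, against 8.93, 9.01 and 8.70 in the control arrays. The groups lay 0.45 apart, and the difference was -0.84 (SE 0.13) with an adjusted p by limma of 0.00847. Pgls, the lactonase one step before Pgd, differed by 0.03 (95% interval -0.20 to 0.26). Taldo1, a transaldolase of the non-oxidative branch, differed by 0.09 and Rpia, the isomerase that makes ribose 5-phosphate, by -0.11. The log2 ratio of Pgd to Taldo1 was -0.37 to 0.13 in the knockdown arrays and 0.63 to 0.94 in the control arrays, and that of Pgd to Pgls was 1.44 to 1.92 in the knockdown arrays and 2.34 to 2.61 in the control arrays.

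All 12 citric acid cycle genes of the list were measured, 1 fell, 0 rose and the median difference was -0.05 (-0.09 without control replicate 1 to 0.005 without control replicate 3). Isocitrate dehydrogenase of the NAD-dependent kind is built of a catalytic alpha subunit and of beta and gamma subunits. Idh3a, the alpha subunit, had 9.45, 9.35 and 9.15 in the knockdown arrays, against 10.39, 10.42 and 10.39 in the control arrays. The 3 controls agreed within 0.03, the groups lay 0.94 apart, and the difference was -1.08 (SE 0.11) with an adjusted p by limma of 0.00137. Idh3b, the beta subunit, had 11.37, 11.56 and 11.52 in the knockdown arrays, against 11.17, 11.42 and 11.77 in the control arrays, and Idh3g, the gamma subunit, had 10.74, 10.81 and 10.71 in the knockdown arrays, against 10.56, 10.63 and 10.76 in the control arrays. Both overlapped between the groups. The log2 ratio of Idh3a to Idh3g was -1.56 to -1.29 in the knockdown arrays and -0.37 to -0.17 in the control arrays, and that of Idh3a to Idh3b was -2.37 to -1.92 in the knockdown arrays and -1.38 to -0.78 in the control arrays. Neither ratio overlapped between the groups, with the exact permutation p of 0.1 given above.

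Idh2, the NADP-dependent isocitrate dehydrogenase of mitochondria, had 7.84, 7.99 and 7.94 in the knockdown arrays, against 7.46, 7.61 and 7.65 in the control arrays. Here the knockdown arrays were above the controls by 0.19 or more, and the difference of 0.35 (SE 0.10) had an adjusted p by limma of 0.0825. It passed where only genes at or above the median level were tested (0.0398). The other 10 genes of the cycle had differences between -0.12 for Cs, citrate synthase, which opens the cycle, and 0.10 for Idh3g. Ogdh and Dlst, of the 2-oxoglutarate dehydrogenase complex, differed by -0.09 and -0.01. Suclg1 and Sucla2, subunits of succinyl-CoA ligase, both differed by -0.06, Fh1, fumarase, by -0.04, and Mdh1 and Mdh2, the cytosolic and mitochondrial malate dehydrogenases, by -0.07 and 0.02.

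Many of the genes that did not pass had narrow intervals on the probe set used. For 30 of these 37 the 95% interval of the difference lay within a change of 1.5-fold in either direction. The other 7 were Hk2, Pfkl, Pfkp, Ldhb, Slc16a3, Mpc1 and Pcx, for which a larger change is not excluded by the interval. An interval covers only the brightest probe set of a gene. Pgam1 is among the 30, and its dimmer probe set differed by 0.46. Ldha is also among them, and whether its probe set read above background was not tested.

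**Figure D3:**
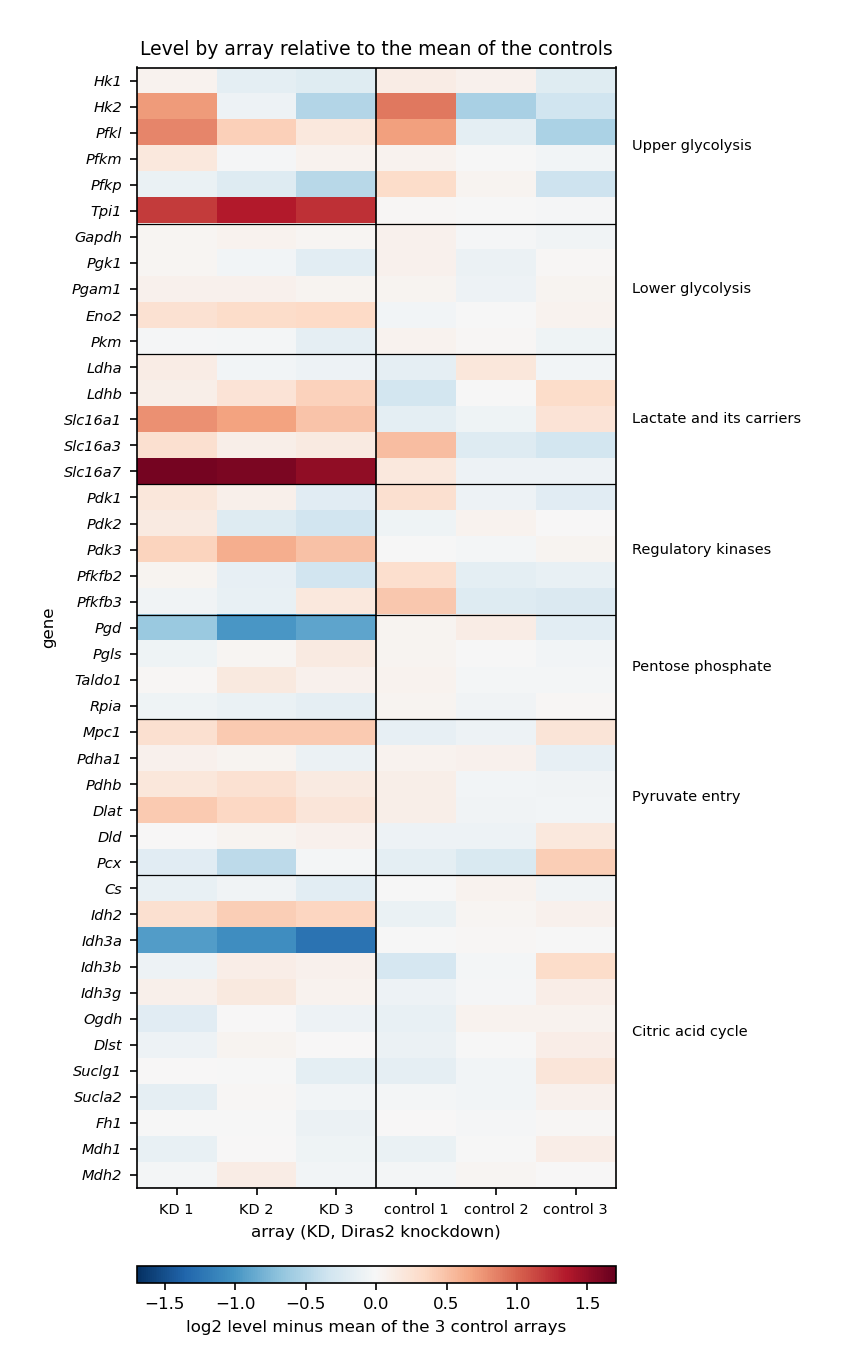
Level of each of the 43 genes in each array relative to the mean of the 3 control arrays (log2, colour scale), Diras2 knockdown arrays left and control arrays right. Tpi1, Slc16a7, Slc16a1 and Pdk3 are raised and Pgd and Idh3a lowered in all 3 knockdown columns, and Hk2 and Pfkl are high in replicate 1 of both groups.

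Further genes of these pathways were taken from lists that serve as context. Ranges of counts given with them are over the 13 alternative settings of the analysis, and ranges of medians over the fits that leave 1 array out. Of 19 other measured glycolysis genes 1 rose, 0 fell and the median difference was -0.01 (-0.04 without control replicate 1 to 0.02 without knockdown replicate 2), with 0 to 2 higher over the settings and 2 with the replicate block. Pgp, the phosphatase that clears toxic by-products of glycolysis, rose 1.45-fold (adjusted p 0.0423 by limma), a call lost without any single array but knockdown replicate 3 (0.0688 to 0.149) and with RNA integrity as a covariate (0.154). Of 12 measured genes of glucose and monocarboxylate transport 1 rose and 0 fell, with 0 to 1 lower over the settings and 1 with the replicate block. Emb, embigin, is a membrane glycoprotein known from rat to accompany Slc16a7 to the cell surface, and had 8.0, 8.31 and 8.44 in the knockdown arrays, against 6.50, 6.69 and 7.20 in the control arrays. It rose 2.74-fold with an adjusted p by limma of 0.00409. Bsg, basigin, the corresponding partner of Slc16a1 and Slc16a3 and named after its values were seen, differed by 0.00 (SE 0.09). Slc2a1 and Slc2a3, the main glucose transporters of glia and vessels and of neurons, named likewise, had differences of -0.38 and -0.17 with adjusted p-values by limma of 0.215 and 0.430.

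Of 9 measured genes around the pentose phosphate pathway 3 rose, 1 fell and the median difference was 0.14, with 2 to 3 higher and 0 to 1 lower over the settings. Prps2, which turns ribose 5-phosphate into the precursor of nucleotides, had 7.74, 7.49 and 7.70 in the knockdown arrays, against 5.95, 6.31 and 6.60 in the control arrays, and rose 2.56-fold (adjusted p 0.00315 by limma). Rpe, the epimerase that acts on the product of Pgd, had 7.87, 8.04 and 8.14 in the knockdown arrays, against 7.30, 7.25 and 7.18 in the control arrays, and rose 1.71-fold (adjusted p 0.0046 by limma). Pgm3, a phosphoglucomutase of amino sugar synthesis, rose 1.58-fold and Rbks, ribokinase, fell 1.81-fold. Pgm3 lost its call without any single array but knockdown replicate 3 (0.0519 to 0.139) and on adding RNA integrity to the model (0.0938), and Rbks without any single array but control replicate 3 (0.0616 to 0.0996).

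Of 23 other genes of pyruvate oxidation and the citric acid cycle 1 rose, 1 fell and the median difference was -0.03 (-0.10 without control replicate 1 to 0.03 without control replicate 3). Over the settings 0 to 3 rose, with 3 under quantile normalisation, and 1 to 2 fell, with 2 of each under the replicate block. Pdpr, the regulatory subunit of the phosphatase that reactivates pyruvate dehydrogenase, had 6.74, 6.42 and 6.54 in the knockdown arrays, against 7.71, 7.65 and 7.92 in the control arrays. It fell 2.29-fold, with an adjusted p by limma of 0.00156. Pdp1 and Pdp2, catalytic subunits of that phosphatase and named after their values were seen, differed by 0.03 (SE 0.10) and 0.34 (SE 0.11). The groups did not overlap for Pdp2, which had an adjusted p by limma of 0.0988. Activity of the phosphatase was not measured. Aco1, the cytosolic aconitase that also senses iron, rose 1.81-fold (adjusted p 0.012 by limma), a call lost when control replicate 2 was left out (0.0638) or RNA integrity was a covariate (0.0532).

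Among 20 genes of anaplerosis and of the metabolite shuttles 2 rose, 0 fell and the median difference was 0.10 (0.035 without control replicate 3 to 0.12 without control replicate 1). Over the settings 1 to 5 rose, with 5 under the replicate block, and 0 to 1 fell. Slc25a1, which exports citrate from mitochondria for fat and sterol synthesis, had 10.40, 10.59 and 10.43 in the knockdown arrays, against 9.79, 9.75 and 9.79 in the control arrays, and rose 1.62-fold (adjusted p 0.00489 by limma). Pck2, the mitochondrial phosphoenolpyruvate carboxykinase, rose 1.59-fold, a call that was lost without knockdown replicate 1 (0.0666) or 2 (0.0976), without control replicate 2 (0.0980) or 3 (0.0555) and on adding RNA integrity to the model (0.0849). Of 13 genes of glycogen and gluconeogenesis 1 rose, 1 fell and the median difference was -0.21 (-0.20 without control replicate 3 to -0.055 without knockdown replicate 1). Epm2a, laforin, a phosphatase that acts on glycogen, rose 2.07-fold with an adjusted p by limma of 0.00105. Ppp1r3c, which brings a phosphatase to glycogen to favour its synthesis, fell 1.73-fold, and lost its call without knockdown replicate 2 (0.0906) or 3 (0.0952), control replicate 2 (0.0807) or 3 (0.0662) and on adding RNA integrity to the model (0.1175).

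The list of regulators of carbon metabolism, the longest of these, was drawn up with earlier results of these data known. Of its 26 measured genes 5 fell and 1 rose, where 3.64% of all genes fell and 4.17% rose. Of the 26, 24 had a mean level at or above the median over genes. Among all genes at or above that median 14.6% passed in either direction. The median difference of the list was -0.16 (-0.16 without knockdown replicate 2 to -0.09 without control replicate 2). The lower ones numbered 6 with the replicate block and with the filter on dim genes, 3 without knockdown replicate 1 or 3 or control replicate 1 or 3 and with median centring, and 2 without replicate 2 of either group and with RNA integrity in the model. Txnip, the arrestin-like protein that is induced by glucose through Mlx-family factors and restrains glucose uptake, had 6.54, 5.01 and 5.58 in the knockdown arrays, against 9.83, 9.16 and 8.35 in the control arrays, a 10.6-fold fall (adjusted p 0.00368 by limma). Mlxip, also called MondoA, a sensor of glucose 6-phosphate that drives Txnip, had 6.85, 6.73 and 6.82 in the knockdown arrays, against 7.93, 7.88 and 7.57 in the control arrays, and fell 1.99-fold (adjusted p 0.0030 by limma). Ppargc1a, a coactivator of mitochondrial genes, fell 1.73-fold and Prkaa1, a catalytic subunit of AMP-activated kinase, 1.58-fold (adjusted p 0.0204 and 0.0376 by limma). Ppargc1a lost its call without knockdown replicate 1 (0.0573) or 2 (0.0721), control replicate 2 (0.0927) or 3 (0.0528) and on adding RNA integrity to the model (0.0966). Prkaa1 lost its call without any single array but knockdown replicate 1 (0.0513 to 0.141), with median centring (0.0588) and on adding RNA integrity to the model (0.133). The fifth, Hif1an, which inhibits hypoxia-inducible factors, and Tfam, the mitochondrial transcription factor that rose, were named after their values were seen. Hif1an fell 1.72-fold and lost its call without any single array but control replicate 3 (0.0719 to 0.136), with median centring (0.0586) and on adding RNA integrity to the model (0.0621). Tfam rose 1.32-fold, a call that no fit leaving out 1 array retained (0.0563 to 0.154). It was also lost with median centring (0.0513), with an intensity trend (0.0506) and on adding RNA integrity to the model (0.166).

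Genes known to be induced in low oxygen, several of which also stand in the lists above, gave 3 higher and 0 lower of 17 measured, with a median difference of 0.10 (-0.02 without control replicate 3 to 0.09 without knockdown replicate 3). With the replicate block 4 were higher and 1 lower, and over the settings 0 to 4 were higher and 0 to 1 lower. Ddit4, an inhibitor of mTORC1, rose 1.79-fold, Vegfa, the growth factor of vessels, 1.67-fold and Higd1a, a mitochondrial protein, 1.46-fold (adjusted p 0.0189, 0.0332 and 0.0402 by limma). Of the 17, 0 were higher when knockdown replicate 1 or 2 or control replicate 2 was left out or RNA integrity was added to the model, and 1 was higher when replicate 3 of either group was left out. In the fit with all arrays 6 of the 17 had an unadjusted p under 0.05, these 3 and 3 with lower levels in the knockdown, P4ha1, Gys1 and Slc2a1, named after their values were seen. P4ha1, a prolyl hydroxylase subunit of collagen synthesis, had the largest absolute difference of the 17 at -0.93 (SE 0.25), with an adjusted p by limma of 0.0657, and of 0.0041 with the replicate block. Hif1a, the factor itself, differed by 0.08 (SE 0.10) in RNA, and its protein was not measured. Pgk1, Ldha and Pdk1, given as examples of its textbook targets, differed by -0.06, 0.00 and 0.03. Whether the probe set of Ldha read above background was not tested. Targets of the factor among the metabolic genes were not gathered in full, and its part in these values was not tested.

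**Figure D4:**
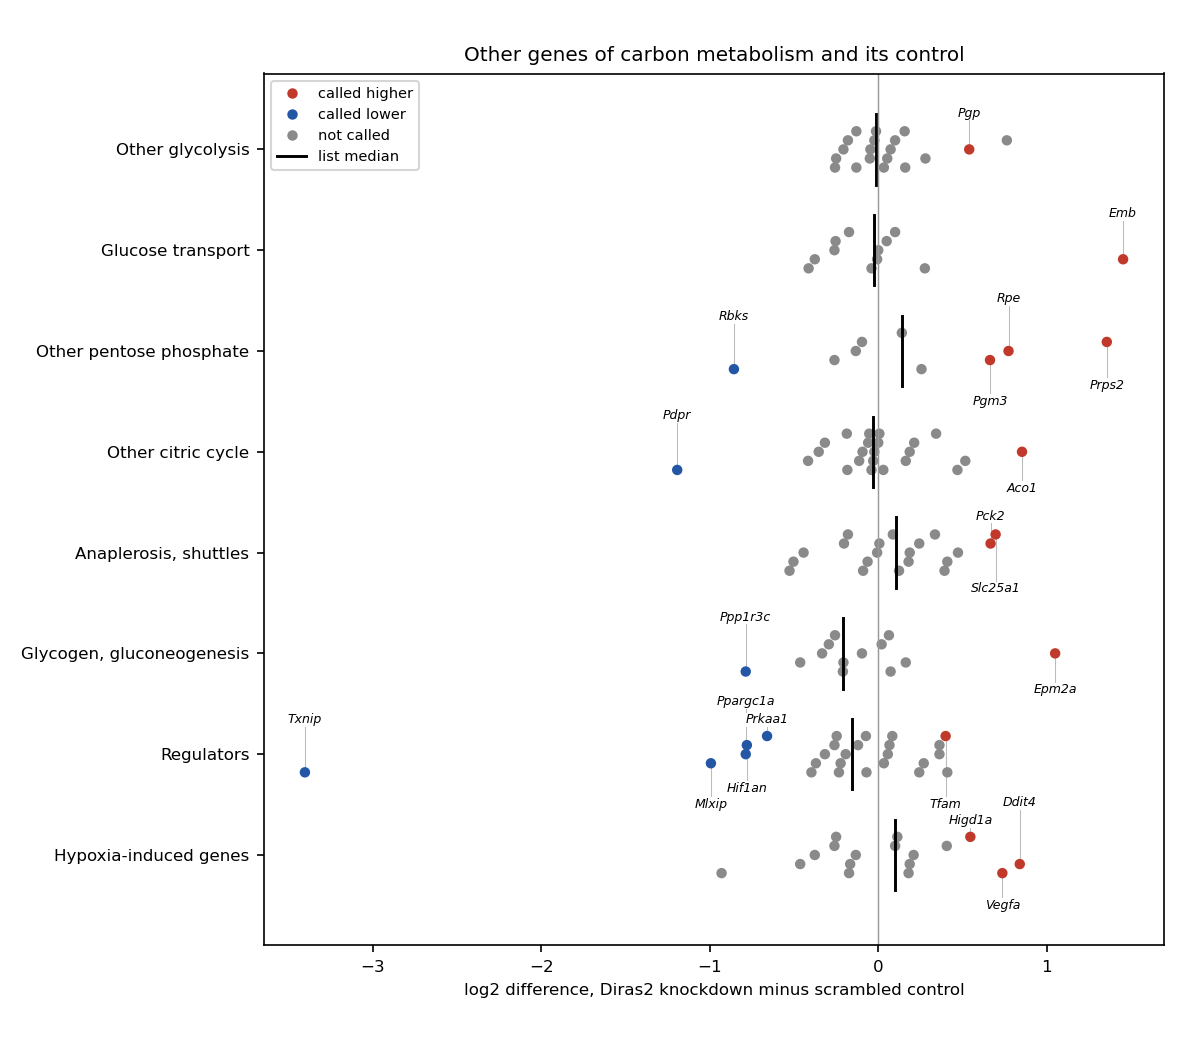
Differences in log2 level, Diras2 knockdown minus scrambled control, of other carbon metabolism genes by list, 1 point a gene, with the list median as a black bar and called genes named. Txnip lies farthest left at -3.40 and Emb farthest right at 1.45, and the list medians run from -0.21 to 0.14, the lowest being -0.055 without knockdown replicate 1.

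Marker lists described the cells of the cultures. Of 14 neuron markers 1 fell, Snap25, of the vesicle fusion machinery, with a count of 4 with the replicate block and of 0 with median centring, with RNA integrity in the model or without knockdown replicate 2 or 3 or control replicate 1 or 2. In all 5 had an unadjusted p under 0.05, and none overlapped between the groups. Besides Snap25 these were Syn1, of synaptic vesicles, at -0.89 (adjusted p 0.0530 by limma), Syt1, their calcium sensor, at -0.58, Nefm, a neurofilament, at -0.45 and Tubb3, a tubulin, at 0.39. The summed log2 level of the 14 was 139.8 to 144.9 in the knockdown arrays and 140.0 to 147.0 in the control arrays. Of 11 astrocyte markers 0 rose and 0 fell, with 1 at an unadjusted p under 0.05 in limma, Gja1, a gap junction gene at -0.59, which fell with the replicate block (adjusted p 0.0385). Their summed level was 79.9 to 82.7 in the knockdown arrays and 82.1 to 82.5 in the control arrays. Of 9 markers of the oligodendrocyte lineage 1 rose, Pdgfra, a receptor of its precursors, a call lost without control replicate 2 or with RNA integrity in the model, and their summed level was 50.4 to 56.2 in the knockdown arrays and 49.1 to 52.1 in the control arrays. Of 6 markers of dividing cells 4 rose, Mki67, Top2a, Aurkb and Cdk1, with a summed level of 27.1 to 30.2 in the knockdown arrays and 23.3 to 24.0 in the control arrays, and the count was 0 without control replicate 2 and 1 without knockdown replicate 2 or 3 or control replicate 3 or with RNA integrity in the model. Of 8 markers of fibroblasts and mural cells 1 fell, Rgs5, a pericyte gene, and 2 fell with the replicate block or without knockdown replicate 3, with a summed level of 48.3 to 51.0 in the knockdown arrays and 50.8 to 52.1 in the control arrays. Of 9 microglia markers 0 were called, with 2 at an unadjusted p under 0.05, Csf1r at -0.46 and Cx3cr1 at -0.31. Of the 9, 1 fell with the replicate block, Csf1r (adjusted p 0.0339), and 1 without knockdown replicate 1. Their summed level was 39.0 to 39.5 in the knockdown arrays and 38.9 to 41.6 in the control arrays. Of 7 endothelial markers 0 were called, with 0 at an unadjusted p under 0.05, and their summed level was 27.2 to 28.2 in the knockdown arrays and 27.5 to 28.1 in the control arrays. The part of these markers in the changes of the metabolic genes was not tested.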

How the data were processed

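Total RNA was amplified and hybridised to Affymetrix expression arrays, 1 per culture. The authors' deposited values are log2 levels per probe set. Per the submitters' processing notes they were made with RMA and Affymetrix Expression Console, version 1.2.1.20. RMA forces the arrays onto 1 common distribution and compresses weak signals, so a shift common to the whole transcriptome cannot be seen. Probe-level intensities and detection calls were not used here.

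Of 41345 probe sets, 23521 had 1 gene symbol in the platform annotation, 1814 several and 16010 none named here, which gave 22180 genes. Samples were grouped by title. The comparison used limma 3.58.1 (R 4.3.3, lmFit and eBayes without trend) with adjustment over all genes. Intervals are unadjusted 95% intervals of that fit. Members, lists and rules for naming genes (all members, and up to 4 called genes per further list) were chosen with earlier results of these data known, and the lists were not tested as sets. The procedure was tested on simulated data. Figures were drawn with matplotlib 3.10.9.

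The groups share replicate numbers. Across genes, the deviations of same-numbered arrays from their group means had correlations of 0.43, 0.12 and 0.37, all above 0.1. For arrays of different numbers they were -0.38 to 0.06, the highest between knockdown replicate 2 and control replicate 3. As deviations from a group mean, these values are not independent. The numbers were therefore used as pairs in an alternative fit with a replicate block. This rests on the data alone, since the labels give no reason for pairs. Results are from the unblocked fit unless the block is named, and its p-values take no account of the pairs. Alternatives were that block, each array left out, quantile normalisation, median centring, a filter on dim genes, an intensity trend, RNA integrity (9, 9.3 and 9.2 in the knockdown, 9.2, 9 and 8.8 in the control) as a covariate, and averaging the probe sets of each gene.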

Additional observations from a re-analysis of the deposited data

How the results depend on the processing

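In 13 alternatives Tpi1, Slc16a7, Idh3a and Pgd kept their call and direction in each, with adjusted p-values by limma up to 0.00778, 0.00739, 0.0131 and 0.0486. Slc16a1 kept its call in 9 and Pdk3 in 8, and Eno2, Idh2 and Mpc1 gained one in at least 1. The number of higher metabolic genes ran from 2 to 5 with 1 array left out (lowest without knockdown replicate 2, control replicate 1 or control replicate 2). It was highest with the filter on dim genes, at 6, and that of lower ones was 2 in all 13. The median difference of the metabolic genes ran from 0.013 to 0.040 with 1 array left out and from 0.00026 to 0.053 otherwise. Over all genes 383 to 800 were higher and 306 to 687 lower with 1 array left out, against 924 and 807. With the replicate block 1341 were higher and 1252 lower, and 402 and 356 on adding RNA integrity to the model. The cause of these shifts was not tested, and the fits that leave an array out also have fewer samples. The block changed no call of the 43 genes. Diras2 kept its call in each alternative, with differences from -3.88 to -3.33. Centring moved the median of all genes by 0.02. Background correction could not be repeated from the deposited values, and 3 arrays a group limit what small changes can be seen.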
